A study of Loxodonta africana with 12 samples.

Results

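Mitochondrial ribosomal protein genes encode the protein part of the ribosome that works inside mitochondria. They were taken here as every gene whose symbol begins with MRPL or MRPS and a number, which gave 70 of the 16406 genes in the deposited tables, 44 MRPL and 26 MRPS. RNA of African elephant (Loxodonta africana) blood cells was sequenced in 12 libraries, 3 in each of 4 groups. The groups were cells irradiated with 2 Gy and collected at 24 h, untreated cells at 24 h, irradiated cells (2 Gy) at 5 h and untreated cells at 5 h. The labels give blood as the source of every group and name no strain, age, isolation step or culture condition, and nothing in them ties the 3 replicates of a group to different animals, blood draws or cultures. If the replicates are technical, the p-values below describe technical spread only. The design asks which genes differ between irradiated and untreated cells.

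The mitochondrial genome encodes a small set of proteins, all of them parts of the respiratory chain and the ATP synthase in mammals. They are made on a dedicated ribosome whose RNAs come from mitochondrial DNA, while its proteins are encoded in the nucleus, made in the cytosol and imported. The small subunit binds and decodes the messenger, and the large subunit joins the amino acids and feeds the chain into the inner membrane. Part of the proteins have bacterial counterparts and part are found only in mitochondria. In blood, lymphocytes expand their mitochondria when they are activated, whereas neutrophils rely mostly on glycolysis. Roles given below are known from human or other mammalian work.

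Library totals were 18022475 to 23805619 counts in irradiated and 22924260 to 37356501 in untreated libraries at 24 h, and 31129422 to 38138163 in irradiated and 31059389 to 35964159 in untreated libraries at 5 h. The first principal component held 75% of the variance and separated the times, and the second held 9.8% and separated irradiated from untreated libraries. MDM2 and CDKN1A, which p53 induces after DNA damage, were higher in irradiated cells at both times, with log2 fold changes of 2.68 ± 0.10 and 2.58 ± 0.18 at 24 h and of 2.64 ± 0.11 and 1.33 ± 0.14 at 5 h (SE, edgeR adjusted p at most 0.0028). Among markers of blood cells, the erythroid list held only 2.46 to 19.4 CPM (read counts scaled to the size of the library) in any library over its 3 measured genes.

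All 70 genes were measured well above the filter on low counts. The lowest count of any of them in any library was 68, for MRPS27, so none was lost and the counts below are over all members. Of the 70 proteins, 23 belong to the small subunit and 46 to the large one, which includes MRPS18A and MRPS30 despite their symbols. MRPS36 is counted in neither, because it is a component of the alpha-ketoglutarate dehydrogenase complex. By origin, 39 were counted as having a bacterial counterpart and 30 as specific to mitochondria. Of the 3 MRPS18 genes, which derive from a single bacterial gene, MRPS18C was put with the counterparts and MRPS18A and MRPS18B with the specific genes. The coding lengths ran from 183 bases for MRPL36 to 1299 for MRPS30. All 70 gene models have a length that is a multiple of 3, so levels between genes are given as CPM per kb of coding length. The 70 genes took 0.198% to 0.224% of all counts in irradiated and 0.245% to 0.252% in untreated libraries at 24 h. At 5 h they took 0.211% to 0.222% in irradiated and 0.223% to 0.224% in untreated libraries.

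Levels per coding length spanned more than an order of magnitude. Averaged over the 12 libraries, the highest levels were of MRPS6 (229 CPM per kb), a small subunit protein of the platform, MRPL52 (183), a large subunit protein specific to mitochondria, MRPL14 (159), a protein of the face that meets the small subunit, and MRPL20 (136), a binder of the large ribosomal RNA. The lowest were of MRPS27 (12.9 CPM per kb), a pentatricopeptide repeat protein of the small subunit, MRPL34 (18.4), MRPS25 (19.9) and MRPL4 (20.8). The place of MRPS6 at the top came from the 24 h libraries. It ranked 1 of 70 in irradiated and in untreated cells at 24 h, with 349 ± 9.1 and 396 ± 26 CPM per kb (SD, n = 3 each). At 5 h it ranked 14 in irradiated and 17 in untreated cells, with 85.7 ± 6.0 and 86.3 ± 12 CPM per kb. MRPL52 led both 5 h groups, with 212 ± 9.1 CPM per kb in irradiated and 214 ± 25 in untreated cells. Neighbours in the order often did not differ beyond their spread: MRPL57, MRPS35, MRPL32, MRPL28 and MRPL27, in places 5 to 9, averaged between 88.8 and 97.8 CPM per kb.

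**Figure D1:**
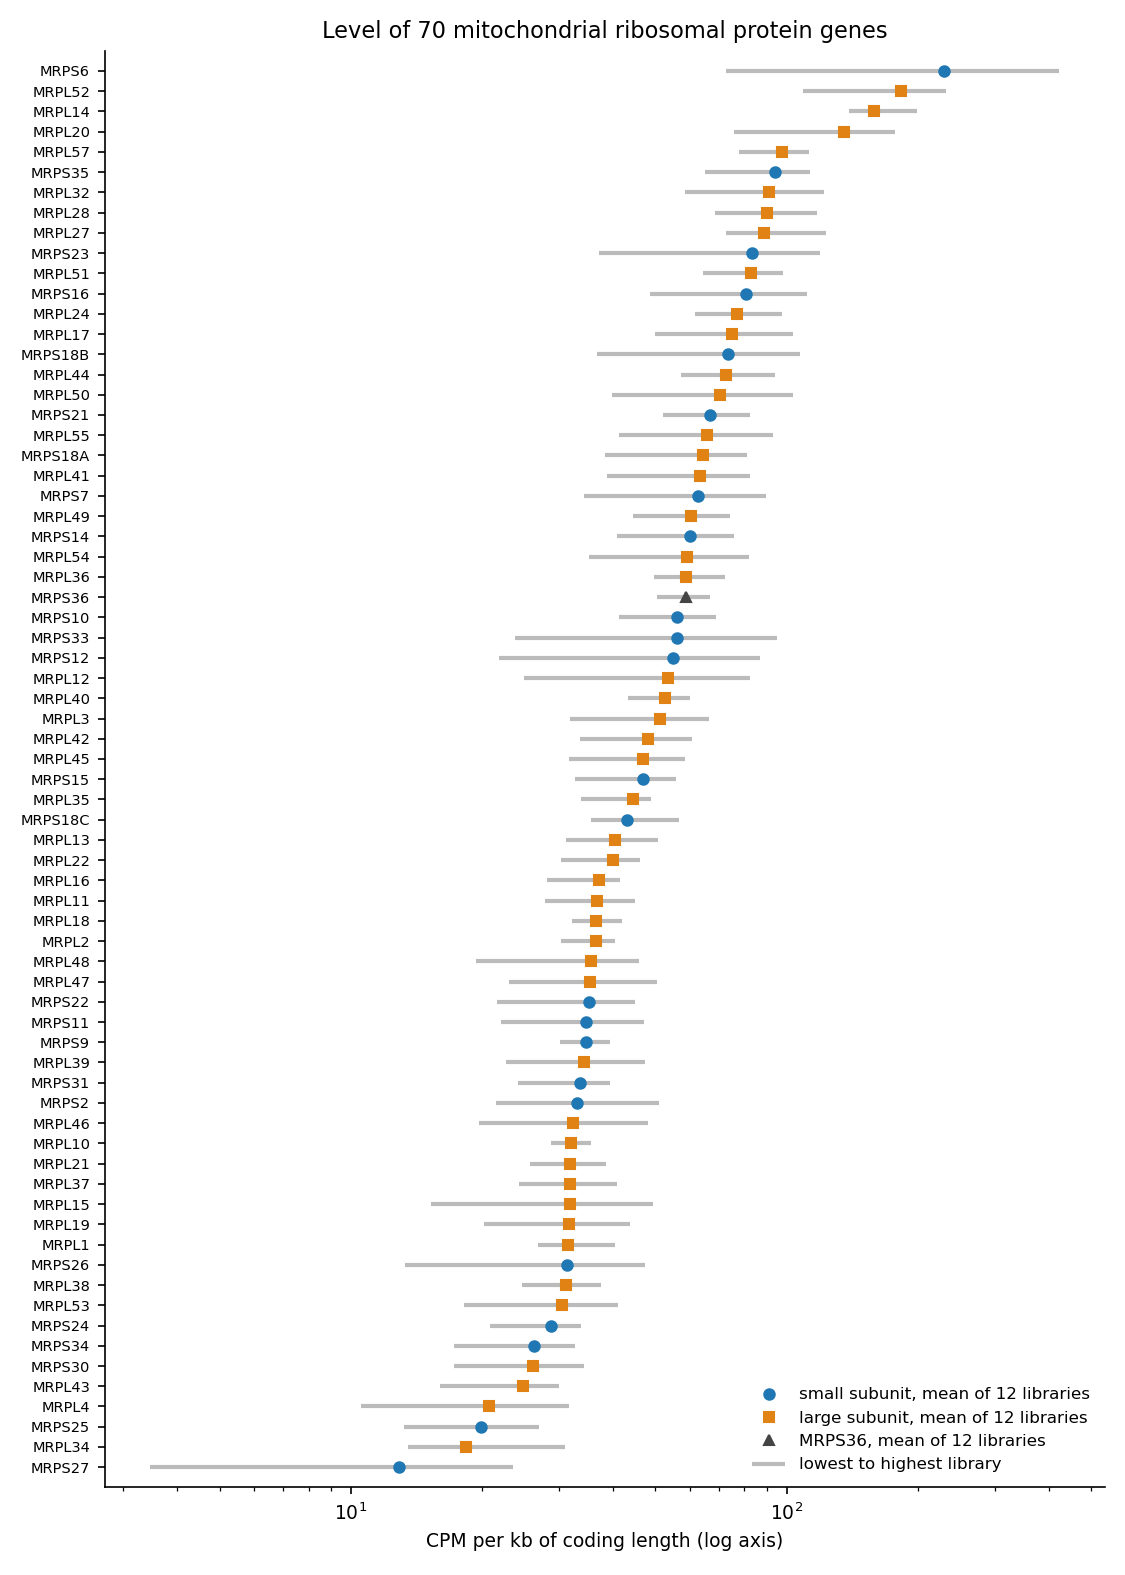
Level of each of the 70 genes in CPM per kb of coding length, on a log axis. Points are means of the 12 libraries, coloured by subunit, and grey lines run from the lowest to the highest library; MRPS6 (229 CPM per kb) is at the top and MRPS27 (12.9) at the bottom, and both have wide ranges.

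Between 5 h and 24 h most of these genes fell relative to the median of all genes, with and without irradiation. In irradiated cells 46 of 70 were lower and 6 higher at 24 h than at 5 h, where 30.6% of all genes tested were lower and 35.3% higher (edgeR quasi-likelihood test, Benjamini-Hochberg adjusted p below 0.05). In untreated cells 43 were lower and 8 higher, where 30.5% of all genes were lower and 32.6% higher. The median log2 fold change of the members was -0.43 in irradiated cells and -0.36 in untreated cells, against 0.10 and 0.11 for all genes tested. The scaling of the libraries decides where 0 lies in a comparison of the times, so the counts depend on it. With library totals in place of TMM scaling, the median of all genes was 0.44 in irradiated and 0.53 in untreated cells, and the members split into 24 lower and 14 higher in irradiated cells (against 18.7% and 49.7% of all genes) and 13 lower and 25 higher in untreated cells (against 16.6% and 52.5%). Their median was then -0.09 in irradiated and 0.06 in untreated cells. With upper-quartile scaling, an alternative chosen after seeing the data, they split into 27 lower and 11 higher in irradiated cells (against 22.2% and 45.2% of all genes) and into 23 lower and 15 higher in untreated cells (against 22.2% and 43.8%). The members' median minus that of all genes was -0.53 in irradiated and -0.46 in untreated cells, a distance that a scaling of libraries cannot move because it shifts every gene alike. The filter on low counts, which sets the genes compared with, did move it, to -0.41 and -0.38 with a stricter filter and to -0.70 and -0.68 with none. Of the 70 genes, 61 lay below the median of all genes in irradiated and 58 in untreated cells. Their summed share of all counts did not fall in untreated cells, with 0.245% to 0.252% at 24 h against 0.223% to 0.224% at 5 h. Without MRPS6 it was 0.2274% to 0.2345% at 24 h against 0.2195% to 0.221% at 5 h. In irradiated cells the shares of the 2 times overlapped (0.198% to 0.224% and 0.211% to 0.222%). The times were deposited in separate tables, and any difference in handling or sequencing between them cannot be told apart from time.

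**Figure D2:**
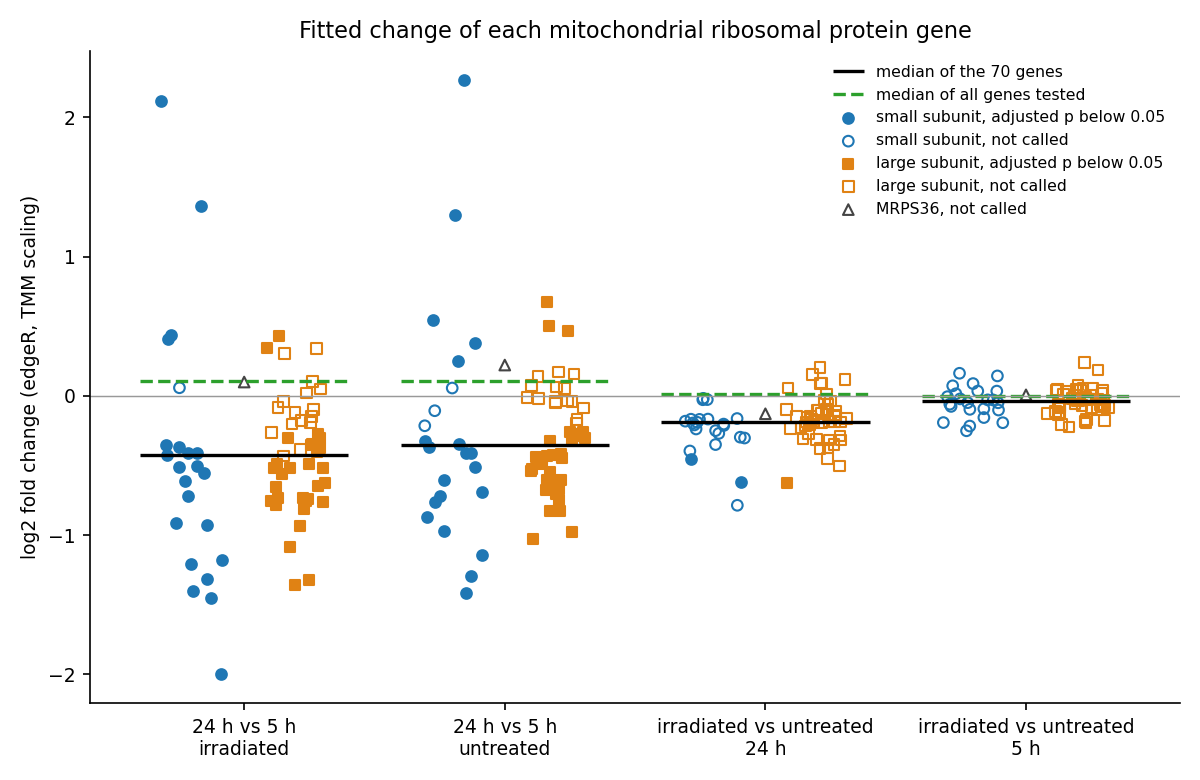
Fitted log2 fold change of each of the 70 genes in 4 comparisons, with small subunit genes on the left of each column, large subunit genes on the right and MRPS36 between them; filled symbols have an adjusted p below 0.05, solid lines are medians of the 70 genes and dashed lines medians of all genes tested. With time most genes lie below the dashed line and MRPS6 and MRPS33 far above it, while the irradiation comparisons are narrow; with library totals the solid line of the untreated time comparison would lie at 0.06 and the dashed one at 0.53.

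MRPS6 rose more than any other member. It had 134, 127 and 132 CPM in irradiated cells at 24 h, against 32.5, 34.2 and 29.7 CPM in irradiated cells at 5 h. In untreated cells it had 139, 158 and 148 CPM at 24 h, against 34.7, 35.1 and 27.2 CPM at 5 h. Every 24 h library lay far above every 5 h library, in irradiated and in untreated cells. Such separation of the times, here and below, was common and does not mark a gene out. In irradiated cells 5295 of all 14028 genes tested lay wholly higher at 24 h and 4592 wholly lower. In untreated cells 4892 of 13445 lay wholly higher and 4378 wholly lower. The log2 fold changes were 2.12 ± 0.10 in irradiated cells (SE, edgeR adjusted p = 2.1e-06) and 2.26 ± 0.12 in untreated cells (adjusted p = 2.8e-06). A measure that needs no scaling shows the same: MRPS6 took 7.14 ± 0.40% of all reads on the 70 genes in irradiated and 7.20 ± 0.22% in untreated cells at 24 h, and 1.26 ± 0.078% in irradiated and 1.25 ± 0.19% in untreated cells at 5 h (SD, n = 3 each). The gene lies on scaffold 13, 21852999 to 21870472, minus strand, in the assembly L_africana_Jul_2009. A gene model upstream on the same strand, 29002 bases away, is SLC5A3, a myo-inositol transporter whose human gene shares its first exon with MRPS6. SLC5A3, looked at after the values of MRPS6 were seen, also rose with time, by 1.67 ± 0.14 in irradiated and 1.66 ± 0.25 in untreated cells on the log2 scale (adjusted p = 2.4e-05 and 0.00049). Reads of shared exons outside the coding models, if counted, could belong to either gene.

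MRPS33, a protein of the small subunit that bacteria lack (scaffold 83, 2215786 to 2219059, plus strand), was next. It had 29.9, 20.9 and 20.6 CPM in irradiated cells at 24 h, against 9.69, 12.4 and 7.62 CPM in irradiated cells at 5 h. Untreated cells had 24.9, 30.4 and 25.1 CPM at 24 h, against 11.4, 12.5 and 10.2 CPM at 5 h. The groups did not overlap between the times, and the log2 fold changes were 1.36 ± 0.22 in irradiated and 1.30 ± 0.13 in untreated cells (adjusted p = 0.00072 and 4.8e-05). MRPS18C, MRPL27 and MRPS21 were also called higher in both conditions. MRPL27, which reaches the peptidyl transferase centre, changed by 0.43 ± 0.14 in irradiated and 0.50 ± 0.11 in untreated cells. MRPS21 changed by 0.41 ± 0.15 and 0.38 ± 0.11. When each of the 6 libraries was left out in turn, the irradiated calls of MRPL27 and MRPS21 were each lost in 5 of 6 fits, and without replicate 1 of 24 h the values were 0.19 and 0.21. In untreated cells MRPS21 was lost in 3 of 6 fits and MRPL27 in 0 of 6, with its lowest value, 0.33, without replicate 2 of 24 h. MRPL14 was called in irradiated cells alone (0.34 ± 0.11 against 0.06 ± 0.13 in untreated cells), and MRPL1 of the stalk that releases spent tRNA (0.47 ± 0.10), MRPS9 (0.25 ± 0.08) and MRPL34 (0.67 ± 0.23) in untreated cells alone. These were called in 1 condition only, and the test of the difference between conditions, given below, called no member. The calls of MRPL14 and MRPS9 were lost in 6 of 6 such fits, with 0.15 for MRPL14 without replicate 1 of 24 h. That of MRPL34 was lost in 5 of 6, with 0.40 without replicate 3 of 24 h. MRPL14, MRPL27 and MRPS21 in irradiated cells and MRPS9 in untreated cells were also not called by DESeq2. Of the higher calls, MRPS6, MRPS33 and MRPS18C in irradiated cells and all but MRPS9 in untreated cells held under all 4 scalings tried. Leaving out 1 library changed the number of higher calls in irradiated cells to 3 without replicate 1 or 2 of 24 h or replicate 2 or 3 of 5 h, and to 2 without replicate 1 of 5 h. In untreated cells it was 5 without replicate 1 or 2 of 5 h.

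The lowest log2 fold change in both conditions was that of MRPS27 in the small subunit. MRPS27, which binds the small ribosomal RNA (scaffold 7, 74407237 to 74423805, minus strand), had 5.60, 3.83 and 3.42 CPM in irradiated cells at 24 h, against 20.02, 19.3 and 15.8 CPM in irradiated cells at 5 h. Untreated cells had 6.98, 7.69 and 7.60 CPM at 24 h, against 21.4, 23.2 and 17.7 CPM at 5 h. All 24 h libraries lay below all 5 h libraries by a wide margin, with log2 fold changes of -1.99 ± 0.21 in irradiated and -1.42 ± 0.13 in untreated cells (adjusted p = 7.7e-05 and 3.9e-05). Its share of the reads on the 70 genes was 0.231 ± 0.045% in irradiated and 0.361 ± 0.016% in untreated cells at 24 h, and 0.719 ± 0.091% and 0.803 ± 0.12% at 5 h (SD, n = 3 each).

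MRPS12, the homologue of a bacterial protein at the decoding centre (scaffold 99, 2174749 to 2177951, plus strand), had 11.6, 10.6 and 14.5 CPM in irradiated cells at 24 h, against 34.5, 35.96 and 36.5 CPM in irradiated cells at 5 h. In untreated cells it had 9.19, 13.4 and 14.9 CPM at 24 h, against 31.7, 33.4 and 30.9 CPM at 5 h. The log2 fold changes were -1.45 ± 0.13 in irradiated and -1.29 ± 0.15 in untreated cells (adjusted p = 3.3e-05 and 1.1e-04), and the times did not overlap. MRPS7, which contacts the messenger's exit path, fell by 1.18 ± 0.09 in irradiated and by 0.97 ± 0.10 in untreated cells on the log2 scale. MRPS2 and MRPS11 are bacterial homologues of the small subunit. MRPS2 changed by -0.93 ± 0.11 in irradiated and -0.76 ± 0.10 in untreated cells, and MRPS11 by -0.91 ± 0.10 and -0.69 ± 0.12. MRPS23, specific to mitochondria, changed by -1.40 ± 0.10 in irradiated and -0.72 ± 0.11 in untreated cells, a gap taken up again with the irradiation effect below.

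In the large subunit, MRPL15 and MRPL12 were among the genes that fell. MRPL15, a binder of the large ribosomal RNA (scaffold 77, 6569996 to 6580155, minus strand), had 14.4, 13.8 and 13.6 CPM in irradiated cells at 24 h, against 36.7, 38.6 and 36.4 CPM in irradiated cells at 5 h. In untreated cells it had 16.04, 22.1 and 21.2 CPM at 24 h, against 40.6, 44.0 and 42.3 CPM at 5 h. The times did not overlap, and the log2 fold changes were -1.32 ± 0.10 in irradiated and -1.03 ± 0.11 in untreated cells (adjusted p = 1.4e-05 and 8.6e-05). MRPL12, the stalk protein that recruits elongation factors and also binds the mitochondrial RNA polymerase, changed by -1.35 ± 0.12 in irradiated and -0.82 ± 0.13 in untreated cells (adjusted p = 3.6e-05 and 0.00056). MRPL17 at the tunnel exit changed by -0.75 in both conditions (SE 0.09 in each). MRPL32, whose maturation needs the m-AAA protease of the inner membrane, changed by -0.74 ± 0.10 in irradiated and -0.60 ± 0.08 in untreated cells, and the untreated call was lost with library totals (-0.19). Of the falls named in these 3 paragraphs, all held under the 4 scalings in irradiated cells, and in untreated cells all but MRPS11, MRPS23 and MRPL32.

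The 3 MRPS18 genes, paralogs derived from a single bacterial gene, did not move together. MRPS18B (scaffold 150, 1068505 to 1074463, minus strand) had 32.6, 28.4 and 30.04 CPM in irradiated cells at 24 h, against 71.9, 77.4 and 75.4 CPM in irradiated cells at 5 h. Untreated cells had 35.9, 45.8 and 43.2 CPM at 24 h, against 82.9, 74.8 and 81.6 CPM at 5 h. MRPS18C (scaffold 30, 12601084 to 12606155, minus strand) had 21.8, 17.8 and 20.5 CPM in irradiated cells at 24 h, against 15.4, 16.2 and 15.8 CPM in irradiated cells at 5 h. In untreated cells it had 20.3, 22.8 and 24.5 CPM at 24 h, against 15.5, 16.5 and 16.6 CPM at 5 h. The times did not overlap for either gene, and they moved in opposite directions. MRPS18B changed by -1.21 ± 0.10 in irradiated and -0.87 ± 0.09 in untreated cells (adjusted p = 2.0e-05 and 6.9e-05), and MRPS18C by 0.44 ± 0.12 and 0.54 ± 0.09 (adjusted p = 0.0092 and 0.0012). Both directions held under all 4 scalings, and the call of MRPS18C in irradiated cells was lost without replicate 3 of 24 h or replicate 1 of 5 h and its value was 0.28 without replicate 1 of 24 h. MRPS18A, the paralog of the large subunit, changed by -0.65 ± 0.14 in irradiated and -0.54 ± 0.10 in untreated cells, and the untreated call was lost with library totals (-0.13).

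Among members with roles outside translation, MRPS30 and MRPL41 have been linked to apoptosis and lie in the large subunit. MRPS30 fell by 0.63 ± 0.10 in irradiated and by 0.44 ± 0.09 in untreated cells on the log2 scale. MRPL41 changed by -0.52 ± 0.15 in irradiated and -0.29 ± 0.10 in untreated cells, and with library totals its direction in untreated cells turned to 0.13. MRPL45, which anchors the ribosome to the inner membrane, changed by -0.56 ± 0.13 in irradiated and -0.49 ± 0.10 in untreated cells. Of these 3 genes, only MRPS30 in irradiated cells kept its call under all 4 scalings. MRPS36 was called in neither condition (0.10 ± 0.12 in irradiated and 0.22 ± 0.10 in untreated cells), but it was called higher in both with library totals (0.44 and 0.64) and with upper-quartile scaling (0.34 and 0.46), and without replicate 1 or 3 of 24 h its value in irradiated cells was below 0.

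**Figure D3:**
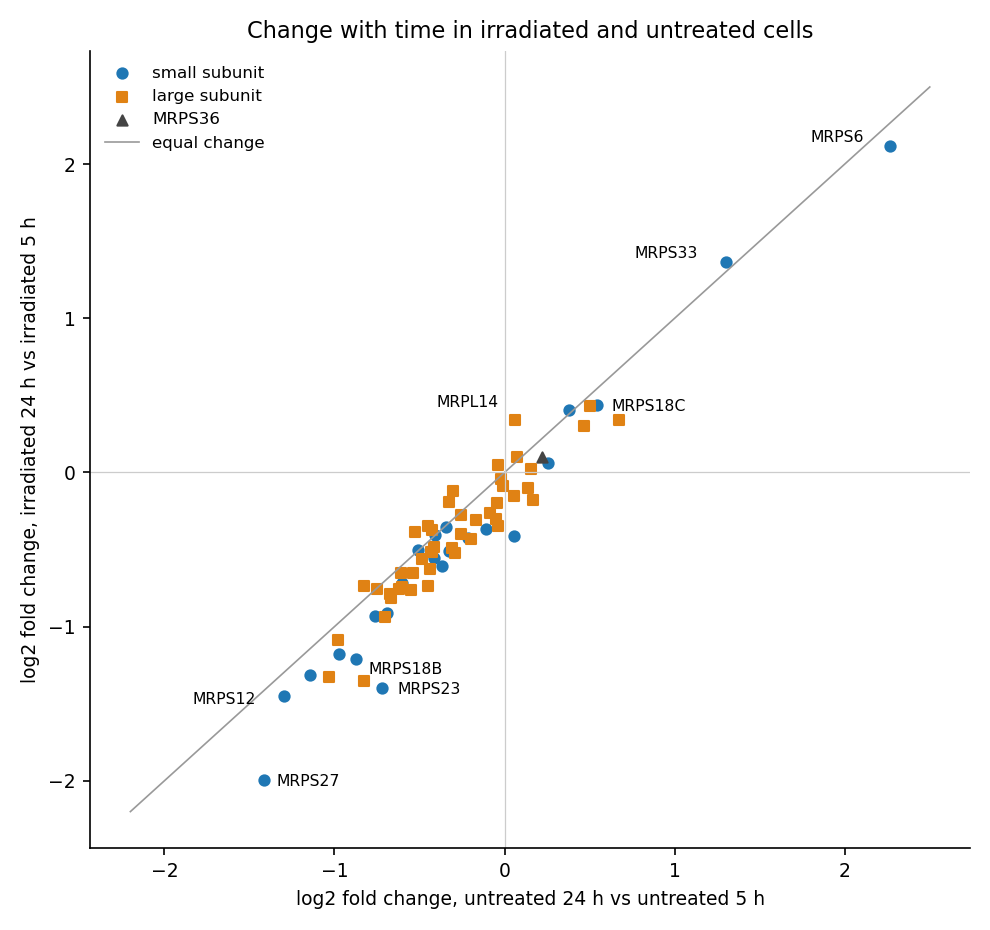
Log2 fold change of 24 h over 5 h in irradiated cells (vertical axis) against that in untreated cells (horizontal axis) for each of the 70 genes, with TMM scaling; the grey line marks equal change. MRPS6 and MRPS33 stand far above the rest in both conditions, MRPS27 is lowest in both, and 58 of the 70 genes lie below the line; with library totals the points shift up and right together.

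Counts of called genes by origin, subunit and site stand beside 30.6% lower and 35.3% higher of all genes tested in irradiated cells. In untreated cells those shares were 30.5% and 32.6%. By origin, 24 of 30 genes counted as specific to mitochondria were called lower and 1 higher in each condition. The lower ones include MRPS18A and MRPS18B, which could also be placed with the bacterial homologues. Of the 39 bacterial homologues, 22 were lower and 5 higher in irradiated and 19 lower and 7 higher in untreated cells. The median log2 fold changes were -0.51 in irradiated and -0.43 in untreated cells for the specific genes, and -0.35 and -0.22 for the homologues. The difference between these groups was not tested. By subunit, 18 of 23 small subunit genes were lower and 4 higher in irradiated cells, and 15 lower and 5 higher in untreated cells. Of 46 large subunit genes, 28 were lower in each condition, with 2 higher in irradiated and 3 higher in untreated cells. At the tunnel exit 6 of 7 genes were lower in irradiated and 5 of 7 in untreated cells, and at the central protuberance 2 and 3 of 4. Of the 3 stalk genes only MRPL12 was called, a share near that of all genes. These sites hold few genes, and their difference from all genes was not tested.

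The irradiated and untreated time comparisons use separate libraries, and they called much the same members. Lower in both were 40 genes, which is 87.0% of the lower calls in irradiated and 93.0% of those in untreated cells, 5 were higher in both, and none was called in opposite directions. As a description over the 70 genes, which share the libraries of each group, the log2 fold changes correlated with Pearson's r = 0.963. Neither the overlap nor the correlation was computed over all genes, of which 30.6% were lower in irradiated and 30.5% in untreated cells. Whether the agreement between conditions is particular to the members therefore cannot be said. Marker genes of blood cell types also moved between the times. The summed level of 8 neutrophil markers was 941 to 1060 CPM in irradiated cells at 24 h, against 2793 to 3137 CPM at 5 h, and 456 to 681 CPM in untreated cells at 24 h, against 2783 to 3242 CPM at 5 h. All 8 were called lower in untreated and 7 of 8 in irradiated cells, where all 8 had a negative value. The sum of 8 genes of lymphocyte activation was 410 to 501 CPM in irradiated cells at 24 h, against 908 to 1279 CPM at 5 h, and 424 to 487 CPM in untreated cells at 24 h, against 784 to 1165 CPM at 5 h. Much of this sum was TFRC, with means of 161 CPM at 24 h and 607 CPM at 5 h in irradiated cells. In untreated cells TFRC had 210 and 501 CPM. Of these 8 genes, 5 were called lower in each condition, among them IL2RA and TFRC, whereas MYC was called in neither. The 10 B cell markers measured all fell in irradiated cells, to sums of 59.3 to 78.1 CPM at 24 h, against 191 to 253 CPM at 5 h. In untreated cells most markers of B, T and NK cells had positive values, and 32.6% of all genes tested were called higher. The B cell markers summed to 405 to 498 CPM at 24 h, against 302 to 368 CPM at 5 h, with 5 of 10 called higher. The T cell markers summed to 714 to 782 CPM at 24 h, against 416 to 628 CPM at 5 h, with 6 of 11 higher, and the NK and cytotoxic markers to 385 to 452 CPM, against 225 to 330.0 CPM, with 4 of 7 higher. None of these 3 lists held a lower call in untreated cells. In irradiated cells the lists went different ways. Of the 11 T cell markers, 4 were called higher and 2 lower, with a median of 0.30. Of the 7 NK and cytotoxic markers, 0 were called higher and 2 lower, with a median of -0.16. In bulk RNA, fewer cells of a type and less RNA per cell cannot be told apart, and the part of these shifts in the members' values was not tested.

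Irradiation itself moved few members past the threshold. At 24 h, 3 of 70 were lower and 0 higher in irradiated than in untreated cells, where 4.94% of all genes tested were lower and 1.8% higher, so the share of members called was close to the background. MRPS23 (scaffold 31, 11027019 to 11032469, plus strand) had 20.5, 24.1 and 24.3 CPM in irradiated cells, against 36, 31.3 and 38.3 CPM in untreated cells. MRPL12 (scaffold 49, 1225741 to 1228929, minus strand) had 14.95, 15.2 and 17.2 CPM in irradiated cells, against 21.1, 22.8 and 29.1 CPM in untreated cells. MRPS18B, whose 24 h values are given above, was the third. In these 3 genes every irradiated library lay below every untreated one. The log2 fold changes were -0.62 ± 0.12 for MRPS23, -0.62 ± 0.13 for MRPL12 and -0.45 ± 0.10 for MRPS18B (SE, edgeR adjusted p = 0.026, 0.035 and 0.044).

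These 3 calls were sensitive to single libraries. With each library left out in turn, the call of MRPL12 was lost in 6 of 6 fits, that of MRPS18B in 5 of 6 and that of MRPS23 in 4 of 6. Leaving out irradiated replicate 2 or 3, or untreated replicate 1 or 3, left 0 calls among the members, leaving out untreated replicate 2 left 1, and leaving out irradiated replicate 1 gave 6, all lower, where 5.1% of all genes were lower. DESeq2 called 5 members lower against 7.87% of all genes, library totals 9 against 7.27%, and the fit over all 12 libraries 10 against 7.64%. Over the 14 alternatives the adjusted p ran from 0.00078 to 0.093 for MRPS23, from 0.0025 to 0.14 for MRPL12 and from 0.010 to 0.18 for MRPS18B.

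The shift of the group as a whole was small and mostly in 1 direction. Of the 70 genes, 63 had a negative log2 fold change at 24 h, including all 23 of the small subunit, and 64 lay below the median of all genes. The median was -0.19 over the members, with a median SE of 0.12 per gene, against 0.01 over all genes. The median was -0.21 for the small and -0.17 for the large subunit. In 20 of the 70 all irradiated libraries lay below all untreated ones, and in 0 above, where 17.9% of all genes tested lay wholly below and 1369 of 14373 wholly above. MRPS27 had the largest fitted value, -0.79 ± 0.20, without passing the test (adjusted p = 0.067), and MRPL15 had -0.50 ± 0.12 (adjusted p = 0.059). The positive values with the smallest p were those of MRPL10 of the stalk base (0.12 ± 0.10), MRPL14 (0.15 ± 0.15) and MRPL53 (0.20 ± 0.20), none of them past the test (adjusted p at least 0.55). MRPL41, linked to apoptosis, had -0.45 ± 0.14 (adjusted p = 0.11) and MRPS30 had -0.27 ± 0.09 (0.15). MRPL45 had -0.13 ± 0.15, MRPS18A -0.15 ± 0.16, MRPS18C -0.17 ± 0.11 and MRPS36 -0.13 ± 0.11.

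**Figure D4:**
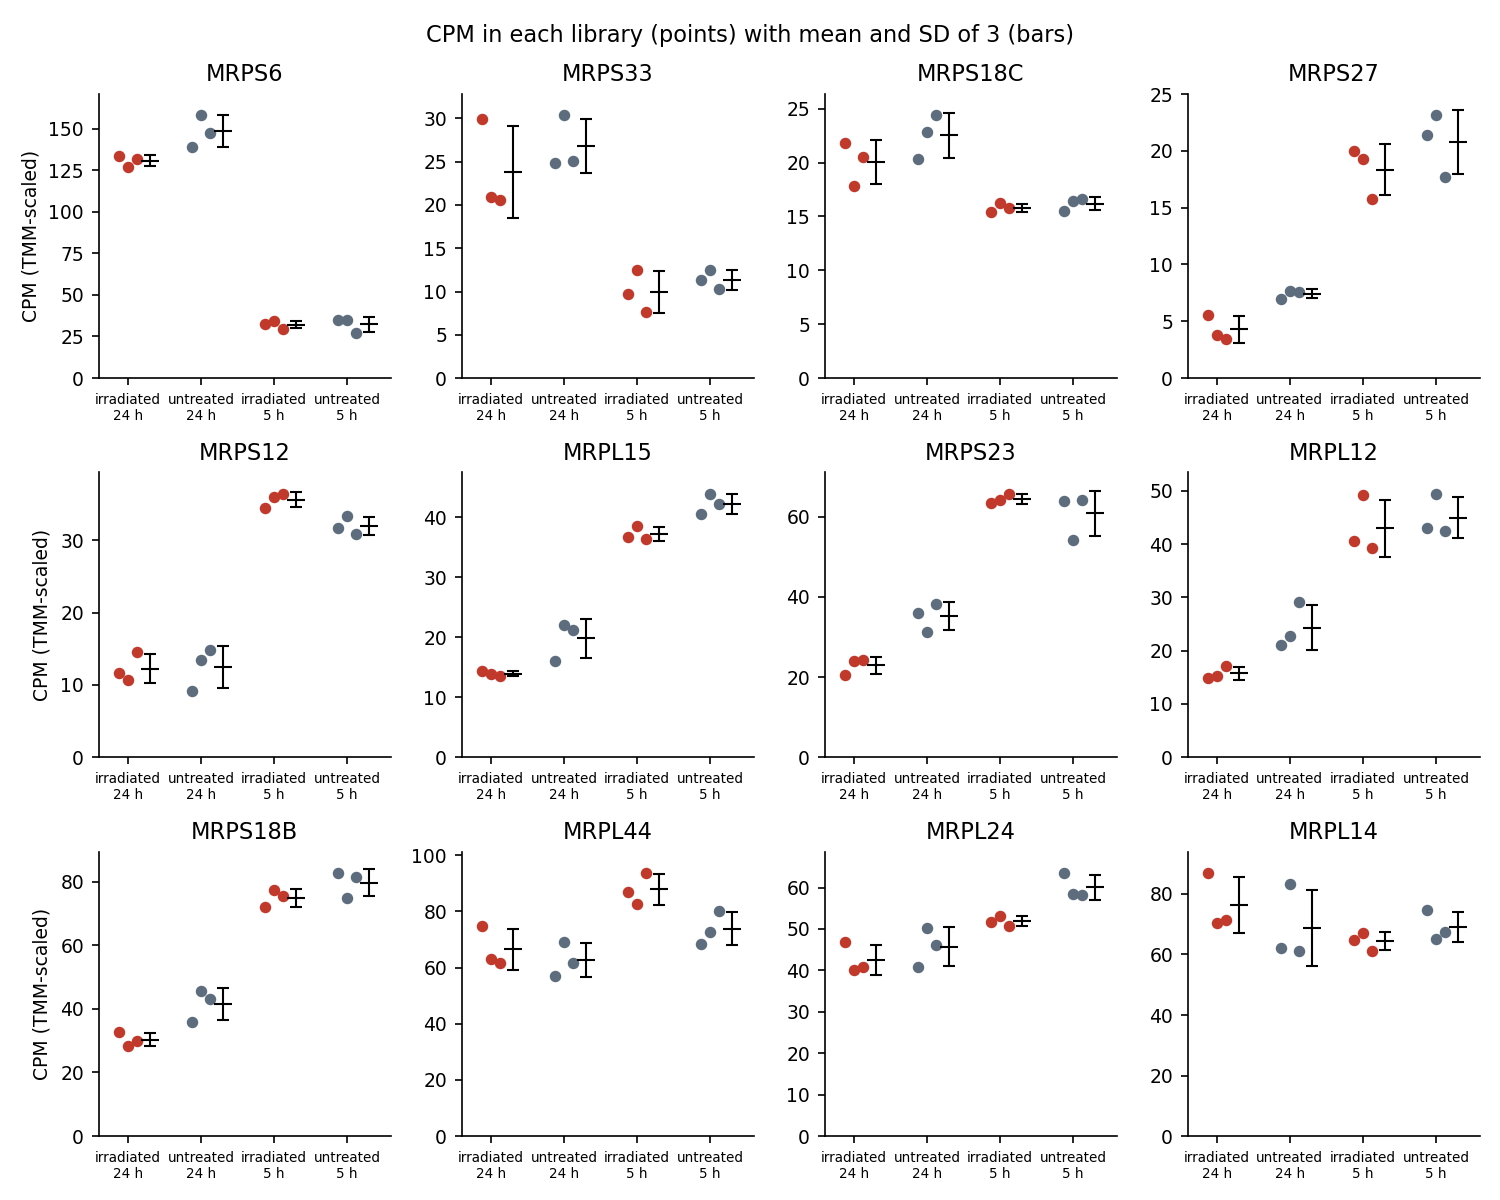
CPM (TMM-scaled over the 12 libraries) of 12 named genes in each library, with groups from left to right irradiated 24 h, untreated 24 h, irradiated 5 h and untreated 5 h; points are libraries, and bars give the mean and SD of 3. MRPS6, MRPS33 and MRPS18C are higher at 24 h than at 5 h, MRPS27, MRPS12, MRPL15, MRPS23, MRPL12 and MRPS18B are lower, and at 24 h MRPS23, MRPL12 and MRPS18B are lower in every irradiated library than in any untreated one.

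Several lists of blood cell markers differed more than the members between irradiated and untreated cells at 24 h. Their calls stand beside 4.94% lower and 1.8% higher of all genes tested. The lists of proliferation and lymphocyte activation differed little, with medians of -0.14 and 0.13. They had 1 of 10 and 1 of 8 genes called, both lower. The sum of the 10 B cell markers measured was 59.3 to 78.1 CPM in irradiated cells, against 405 to 498 CPM in untreated cells, and all 10 were called lower. The sum of 7 NK and cytotoxic markers was 145 to 215 CPM in irradiated cells, against 385 to 452 CPM in untreated cells, with 5 called lower. The 11 T cell markers summed to 452 to 552 CPM in irradiated cells, against 714 to 782 CPM in untreated cells, with 4 called lower. The 8 neutrophil markers summed to 941 to 1060 CPM in irradiated cells, against 456 to 681 CPM in untreated cells, with 2 called higher. Of 8 monocyte markers listed, only 4 were in the tables. These summed to 2615 to 3337 CPM in irradiated cells, against 1945 to 2520 CPM in untreated cells, with 2 called higher. CD163 (1.17 ± 0.56, edgeR adjusted p = 0.28) and CSF1R (0.01 ± 0.10, adjusted p = 0.97) were not called. The 5 platelet markers summed to 99.9 to 130.2 CPM in irradiated cells, against 46.4 to 63.2 CPM in untreated cells, with 3 called higher. None of the markers in the tables was at 0 in all libraries of a group, and the part of these differences in the members' lower values was not tested.

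At 5 h irradiation changed no member past the threshold. Higher and lower calls were 0 of 70 each, where 1.12% of all genes tested were higher and 0.478% lower (edgeR), and DESeq2 also called 0. An unadjusted p below 0.05 was found for 2 members on the higher and 4 on the lower side (edgeR). Of all 12969 genes tested, 807 had one on the higher and 865 on the lower side. The median log2 fold change was -0.03 over the members, with a median SE of 0.08 per gene, and 0.00 over all genes, and no member lay outside -0.25 to 0.24. In 9 of the 70 all irradiated libraries lay below all untreated ones, where 9.21% of all genes did.

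Same-numbered libraries correlated at 5 h (0.597, 0.588 and 0.746) and were taken as pairs, which no label states. A correlation of 0.79 also occurred at 24 h between libraries of different numbers. With the replicate number as a block, a fit with 2 residual degrees of freedom, 2 members were higher and 4 lower, where 10.6% of all genes were higher and 9.92% lower. MRPL44, an RNase III-like protein of the tunnel exit (scaffold 3, 2911887 to 2920254, minus strand), had 86.9, 82.7 and 93.8 CPM in irradiated cells, against 68.5, 72.7 and 80.1 CPM in untreated cells. Every irradiated library exceeded every untreated one. Its log2 fold change was 0.24 ± 0.08 (adjusted p = 0.28) and with the block 0.24 ± 0.05 (adjusted p = 0.0026). MRPL46 of the central protuberance was the other gene higher under the block (0.18 ± 0.06, adjusted p = 0.048, and 0.37 without it). MRPL24, also at the tunnel exit, had 51.7, 53.2 and 50.8 CPM in irradiated cells, against 63.6, 58.5 and 58.1 CPM in untreated cells, again without overlap. Its log2 fold change was -0.22 ± 0.07 (adjusted p = 0.20) and with the block -0.22 ± 0.05 (adjusted p = 0.0054). MRPL15 (-0.20 ± 0.05, adjusted p = 0.017), MRPS21 (-0.25 ± 0.07, adjusted p = 0.025) and MRPS14 (-0.19 ± 0.06, adjusted p = 0.040) were the other genes lower under the block, and their adjusted p without it was 0.28, 0.29 and 0.33. MRPS12 had 0.14 ± 0.07 (adjusted p = 0.46) and was not called with the block. MRPL12 had -0.08 ± 0.11, MRPS18A -0.02 ± 0.06, MRPS18B -0.10 ± 0.07, MRPS18C -0.05 ± 0.08, MRPS30 -0.07 ± 0.07, MRPL41 -0.21 ± 0.10, MRPL45 -0.04 ± 0.06 and MRPS36 0.01 ± 0.08, none of them called with or without the block.

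Whether the irradiation effect differed between 24 h and 5 h was tested directly over the 12 libraries. No member was called, higher or lower, where 0.125% of all genes were higher and 0.757% lower (edgeR). An unadjusted p below 0.05 was found for 8 members, all on the lower side. Of all 15200 genes tested, 1080 had one on the lower and 431 on the higher side. MRPS23 came nearest, with a difference of -0.69 ± 0.15 on the log2 scale (adjusted p = 0.0501). Its irradiation effect was -0.62 at 24 h and 0.07 at 5 h. It was called with DESeq2, with RLE scaling and without untreated replicate 2 of 24 h (count of members called 1 in each), and over the 19 alternatives its adjusted p ran from 0.00075 to 0.15. MRPL12 had -0.55 ± 0.18 (adjusted p = 0.25) and MRPS24, a small subunit protein with a bacterial counterpart, -0.49 ± 0.14 (0.18). The positive values with the smallest p were those of MRPL14 (0.26 ± 0.18), MRPL40 (0.17 ± 0.13) and MRPL24 (0.12 ± 0.13), with adjusted p of at least 0.75. The median over the members was -0.16, against -0.01 over all genes, and it was -0.26 without irradiated replicate 1 of 24 h and -0.10 without irradiated replicate 2. Taken separately, 63 of the 70 genes had a negative value at 24 h and 48 at 5 h, and 44 had one in both. With so many negative at 24 h, most of this overlap follows from the separate counts and is no sign of agreement.

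Other genes of the same pathway were described from lists chosen for it. With time, the counts of each list stand beside 30.6% lower and 35.3% higher of all genes in irradiated cells, and 30.5% and 32.6% in untreated cells. Ribosomal proteins of the mitochondrion that carry other symbols were called lower in 3 of 5 cases in each condition. The largest fall among them was of ICT1, a peptidyl-tRNA hydrolase built into the large subunit (-0.96 ± 0.11 in irradiated and -0.67 ± 0.08 in untreated cells), and DAP3, a GTP-binding protein of the small subunit, changed by -0.56 ± 0.12 and -0.44 ± 0.09. CHCHD1 of the small subunit changed by -0.48 ± 0.11 and -0.33 ± 0.10. Of 22 assembly factors, 14 were called lower and 2 higher in irradiated cells (63.6% lower). In untreated cells 9 were called lower and 4 higher (40.9% lower). RPUSD4, a pseudouridine synthase of the large ribosomal RNA, changed by -1.91 ± 0.14 in irradiated and -1.69 ± 0.11 in untreated cells, the RNA helicase DHX30 by -1.39 ± 0.10 and -1.33 ± 0.10, and the ribosomal RNA methyltransferase RNMTL1 by -1.22 ± 0.11 and -0.98 ± 0.09. Of 18 translation factors, 10 were called lower and 3 higher in each condition. The elongation factor TUFM changed by -1.03 ± 0.11 in irradiated and -0.85 ± 0.09 in untreated cells, and the messenger-binding LRPPRC by -1.11 ± 0.10 and -0.77 ± 0.09. The ribosome recycling factor GFM2 changed by -0.59 ± 0.09 and -0.48 ± 0.08, while C12orf65, a release factor homologue, rose by 1.05 ± 0.17 and 0.87 ± 0.13.

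Of 9 genes that read and copy mitochondrial DNA, 5 were called lower in irradiated and 4 in untreated cells (55.6% and 44.4%), and none was called higher. The RNA polymerase POLRMT changed by -1.97 ± 0.16 in irradiated and -1.79 ± 0.15 in untreated cells, and its cofactor TFB2M by -0.92 ± 0.10 and -0.87 ± 0.08. The DNA polymerase subunit POLG changed by -0.77 ± 0.09 and -0.64 ± 0.09 and the single-strand binding protein SSBP1 by -0.87 ± 0.12 and -0.82 ± 0.10. Nuclear regulators of mitochondrial genes went both ways. In irradiated cells 5 of 9 tested were called lower and 2 higher, and in untreated cells 4 of 8 lower and 1 higher. The coactivator PPRC1 changed by -1.92 ± 0.11 in irradiated and -2.02 ± 0.10 in untreated cells. The coactivator PPARGC1B rose, by 1.26 ± 0.28 and 1.52 ± 0.20. PPARGC1A lay near the floor, with means of 0.12 CPM at 5 h and 0.69 CPM at 24 h in irradiated cells. Untreated cells had 0.12 and 0.53 CPM, and there it did not pass the filter on low counts. Its fitted change in irradiated cells was 2.69 ± 0.54. At such levels a gene can pass the filter through the higher group alone, so this value is no independent support for a rise. The transcription factor NRF1 changed by -0.95 ± 0.09 and -1.11 ± 0.08, and GABPB1, a subunit of another such factor, by -0.996 ± 0.11 and -0.99 ± 0.10. Of 62 nuclear genes of the respiratory chain and ATP synthase tested, 13 were called lower and 14 higher in irradiated cells. In untreated cells 12 were called lower and 20 higher. The medians were 0.04 in irradiated and 0.08 in untreated cells. Cytosolic ribosomal protein genes were called lower in 44 of 51 cases in irradiated and 25 of 51 in untreated cells. Called higher was 1, in irradiated cells. Their medians were -0.54 and -0.29, and 49 of the 51 had a negative value in irradiated and 44 in untreated cells. The difference between these lists was not tested.

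At 24 h 16 of the 51 cytosolic ribosomal protein genes were called lower and 1 higher in irradiated cells, with a median of -0.34. Of all genes tested, 4.94% were called lower and 1.8% higher. The respiratory chain list had 1 lower and 1 higher of 62 and a median of -0.14. TSFM, the partner of TUFM, was the 1 of 18 translation factors called lower (-0.72 ± 0.13, adjusted p = 0.021), a share near that of all genes. TFAM, which packages mitochondrial DNA, was the 1 of 9 called lower in its list (-0.47 ± 0.09, adjusted p = 0.030). The other lists held no call at 24 h, and none of the 5 mitochondrial lists held a call at 5 h or in the difference between times. Without a call, the 22 assembly factors had a median of -0.23 at 24 h, with 19 negative, against -0.19 for the members.

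**Figure D5:**
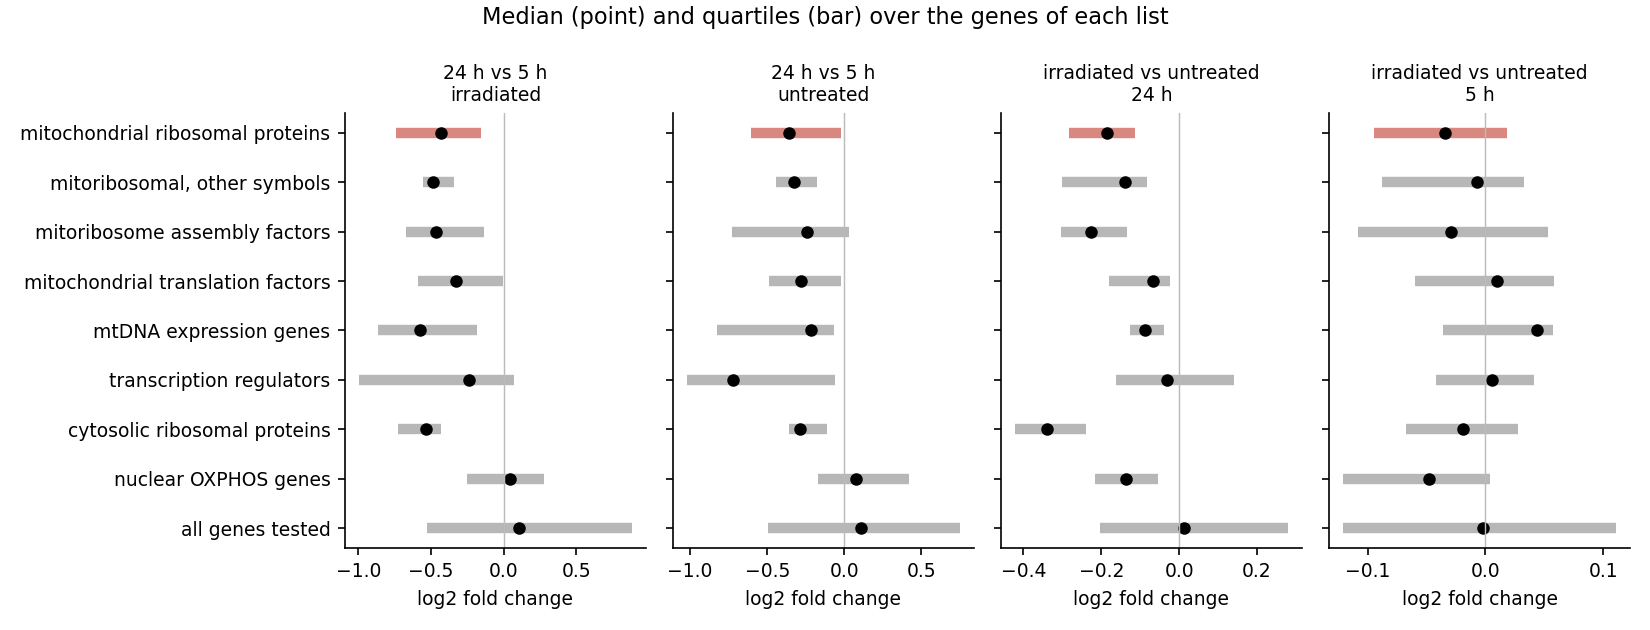
Median (point) and quartiles (bar) of the log2 fold change over the genes of each list in 4 comparisons, each with its own horizontal scale. Mitochondrial ribosomal proteins (medians -0.43 and -0.36) and the lists around them lie below all genes tested with time, whereas nuclear respiratory chain genes (OXPHOS) lie near them; with library totals the median of all genes would lie at 0.44 in irradiated and 0.53 in untreated cells.

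Several members share a start region with another gene. A gene model on the opposite strand begins within 1000 bases, head to head, for 13 of the 70 members (18.6%), against 2.55% of all 16406 gene models. MRPL46 and MRPS11 are such a pair, with coding starts 385 bases apart, and both fell with time, MRPL46 by 0.94 ± 0.11 in irradiated and 0.70 ± 0.10 in untreated cells on the log2 scale. MRPS18C starts 456 bases from HELQ, a DNA helicase, which changed by 0.52 ± 0.11 in irradiated and 0.52 ± 0.09 in untreated cells, close to the values of MRPS18C. MRPL32 starts 246 bases from the proteasome gene PSMA2 (-0.62 ± 0.11 and -0.57 ± 0.11), and MRPS7 starts 326 bases from GGA3, a sorting protein of the Golgi (-0.47 ± 0.12 and -0.58 ± 0.12). Other pairs differed. MRPL57 starts 448 bases from SKA3, a kinetochore protein, which at 5 h was higher in irradiated cells by 1.95 ± 0.28 (adjusted p = 0.016), while MRPL57 had -0.06 ± 0.06 (adjusted p = 0.74). MRPL47 (-0.52 ± 0.15 in irradiated and -0.43 ± 0.13 in untreated cells) starts 197 bases from the respiratory chain gene NDUFB5 (-0.01 ± 0.12 and 0.18 ± 0.11), and MRPL49 (-0.49 ± 0.10 and -0.42 ± 0.08) 532 bases from FAU (-0.19 ± 0.13 and -0.20 ± 0.10). MRPS2 starts 691 bases from C9orf116, and MRPL10 485 bases from LRRC46, both barely detected (0.184 and 0.352 CPM on average), and MRPS12, MRPS34 and MRPL21 pair with models that have no symbol. MRPL53, MRPL34, MRPS34, MRPL43 and MRPL49 overlap another model (SEMA4F, ANO8, IFT140, C10orf2 and NAALADL1), and their counts are uncertain, because no source used here says whether counting used strand.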

How the data were processed

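The authors deposited 1 table per time with raw read counts per gene and library, per the file headers; these were the input of every test. Coding lengths are the deposited gene model lengths. Per the labels' protocols, libraries were made with a stranded kit after ribosomal RNA depletion. The aligner and the counting program, with its use of strand: not given in the sources used here. Coordinates are printed as the tables give them (assembly L_africana_Jul_2009). The 24 other per-library columns (rlog and FPKM values) were not used.

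Tables were joined by gene ID. Counts were fitted over all genes with edgeR 4.0.16 in R 4.3.3 (TMM, filterByExpr, quasi-likelihood F test, Benjamini-Hochberg at 0.05), with DESeq2 1.42.0 as an alternative. Each comparison used its own 6 libraries without a block; the difference of effects used all 12. SE is the log2 fold change over the root of F. Printed CPM are TMM-scaled over 12 libraries. Fits were tested on simulated data.

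Members, lists and the naming rule (per comparison and direction the called members, up to the 8 with the smallest p, or the 3 with the smallest p where none is called, plus the extremes of level and a few with special roles, and up to 3 called genes per neighbouring list) were chosen with earlier results of these data known. MRPS14, SLC5A3, PPARGC1B, PPARGC1A, the genes in places 5 to 9 by level, and MRPS27 and MRPL15 under irradiation at 24 h, were named after their values were seen. Deviations from group means over 10985 genes correlated at 0.597, 0.588 and 0.746 between same-numbered libraries at 5 h, above 0.1, so the numbers were taken as pairs there and the blocked fit stands beside the 5 h results.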

Additional observations from a re-analysis of the deposited data

How the results depend on the processing

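Between the times the scaling mattered most. Members called lower and higher were 24 and 14 in irradiated and 13 and 25 in untreated cells with library totals, and 27 and 11 and 23 and 15 with upper-quartile scaling, an alternative chosen after seeing the data; the medians were -0.09 and 0.059, and -0.19 and -0.12. MRPL41 in untreated cells turned to 0.13 with library totals. With time, higher calls in irradiated cells were 3 with DESeq2, with RLE scaling and without a filter. At 24 h the members called, all lower, numbered 5 with DESeq2, 10 in the fit over 12 libraries, 9 with library totals and 1 with the replicate block, where numbers did not pair the libraries (correlations -0.125, -0.527 and 0.799; irradiated replicates 1 and 2 correlated best with untreated replicates 2 and 1, at 0.79 and 0.484, a hint from the data that no label gives). At 5 h the block gave 6 calls, 2 higher and 4 lower. In the difference of effects DESeq2 and RLE scaling called 1 member, lower, against 0. Leaving out each library in turn gave 0 to 6 lower calls at 24 h, 0 to 1 in the difference of effects (median -0.26 to -0.10), 5 to 6 higher calls in untreated and 2 to 4 in irradiated cells with time, where the irradiated median ran from -0.56 to -0.44; it gave 0 calls at 5 h. With the block over the times, calls were 48 in irradiated and 46 in untreated cells, and same-numbered libraries did not correlate above 0.1. Of the values of single named genes, 1078 kept direction and side of the threshold, 81 lost and 15 gained the call, 10 uncalled ones changed sign and 1 reversed. The lowest count of a member in any library was 68.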
